A study of Homo sapiens with 2 samples.

Results

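The genes described here are 49 that copy DNA, supply its building blocks or start S phase, taken from a fixed list of symbols and found by symbol among 23686 in the tables. They span the steps of replication from origin recognition to ligation, with nucleotide synthesis and 3 regulators of S-phase entry. The libraries came from A427, an established human non-small cell lung carcinoma line, labelled wild type while the series title calls these cells CTNNB1-mutated. Floating cells, which form spheres, and adherent cells of that line were kept in the same medium with 5% serum and collected apart, and the labels name no agent or engineered change for either. Poly(A) RNA of each growth form was sequenced in 1 library, so a difference is one between 2 libraries, with no SD and no p-value. The question was which of these genes stood at different levels in the 2 growth forms.

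The floating library held 27148842 gene-assigned reads and the adherent library 26384670. All 49 members reached 1 CPM (reads per 1000000 after scaling) in either library, the minimum that 13131 genes passed, and each had at least 349 reads in floating and 390 in adherent cells. Ratios are floating over adherent on scaled counts, each with a 95% binomial interval that covers counting error only, and levels are TPM, which is corrected for transcript length. In bulk RNA, fewer cells in S phase and less of a transcript per cell cannot be told apart. Of the epithelial markers, EPCAM was at 582 TPM in floating and 615 TPM in adherent cells, and KRT18 at 613 and 342 TPM, whereas CDH1 was at 13.9 TPM in floating and 18.9 TPM in adherent cells. The mesenchymal marker VIM was at 4850 TPM in floating and 5264 TPM in adherent cells, and CDH2 at 1.88 and 2.81 TPM. KRT8, also epithelial, was at 581 TPM in floating and 327 TPM in adherent cells, and KRT19 at 1.3 and 0.5 TPM. The fibroblast marker COL1A1 was at 7.98 TPM in floating and 13.9 TPM in adherent cells, and PDGFRA at 0.05 and 0.06 TPM. The lung markers SFTPC, listed at 0 in both, and NKX2-1, at 0.46 TPM in floating and 0.12 TPM in adherent cells, were near or at 0. SFTPB was at 0.03 TPM in floating and 0 TPM in adherent cells, and NAPSA at 1.32 and 1.95 TPM. Of markers of other cell types, PTPRC and PECAM1 were at 1.95 and 0.04 TPM in floating cells and at 2.84 and 0 TPM in adherent cells. CD68 was at 31.5 TPM in floating and 16.9 TPM in adherent cells, VWF at 0.38 and 0.13 TPM, and HBB at 0.18 and 0 TPM.

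DNA replication begins in G1, when the origin recognition complex (ORC), CDC6 and CDT1 load the ring-shaped MCM2-7 helicase onto origins, a step called licensing that geminin blocks once S phase has begun. At S phase, MCM10, CDC45 and GINS switch the loaded rings into active helicases, the RPA complex coats the exposed single strands, and DNA polymerase alpha with primase starts new strands that polymerases delta and epsilon extend, held on DNA by the sliding clamp PCNA, which the RFC complex loads. Many of these genes are known targets of E2F transcription factors, which RB proteins hold back until cyclin-dependent kinases release them.

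The promoters of members at both ends of the range of ratios are shown first, since many members share one sequence feature there. RefSeq windows (GRCh38.p14, from 250 bases before to 50 after an annotated start) were found for 42 of the 49 members, and not for MCM4, MCM5, GINS4, POLD3, RPA2, RPA3 and CCNE2. UNG, MCM2, MCM7 and E2F1 have the lowest ratios among the members with a window, and ORC5, added for contrast after the values were seen, has the highest. Capitals mark E2F-type words, which are TTTCCCGC, TTTCGCGC, TTTGCCGC and TTTGGCGC on either strand, where words on opposite strands may overlap. The windows lie at chr12:109097922-109098221, plus strand, for UNG; at chr3:127598161-127598460, plus strand, for MCM2; at chr7:100101348-100101647, minus strand, for MCM7; at chr20:33686336-33686635, minus strand, for E2F1; and at chr7:104207964-104208263, minus strand, for ORC5. UNG has 2 windows and MCM7 has 3, of which the one with most words is shown, and each sequence reads 5′ to 3′ toward the gene.
UNG: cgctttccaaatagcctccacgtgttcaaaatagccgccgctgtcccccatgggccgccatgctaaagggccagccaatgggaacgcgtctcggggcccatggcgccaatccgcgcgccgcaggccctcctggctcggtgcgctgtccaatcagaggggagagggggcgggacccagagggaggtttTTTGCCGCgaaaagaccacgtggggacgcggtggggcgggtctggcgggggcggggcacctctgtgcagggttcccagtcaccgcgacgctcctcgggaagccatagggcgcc
MCM2: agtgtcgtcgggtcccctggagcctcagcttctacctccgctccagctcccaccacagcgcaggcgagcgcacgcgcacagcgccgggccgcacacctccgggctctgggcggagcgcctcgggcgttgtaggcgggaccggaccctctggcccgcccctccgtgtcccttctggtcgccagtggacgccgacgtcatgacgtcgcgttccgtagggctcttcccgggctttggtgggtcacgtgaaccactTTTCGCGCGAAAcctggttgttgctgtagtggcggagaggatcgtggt
MCM7: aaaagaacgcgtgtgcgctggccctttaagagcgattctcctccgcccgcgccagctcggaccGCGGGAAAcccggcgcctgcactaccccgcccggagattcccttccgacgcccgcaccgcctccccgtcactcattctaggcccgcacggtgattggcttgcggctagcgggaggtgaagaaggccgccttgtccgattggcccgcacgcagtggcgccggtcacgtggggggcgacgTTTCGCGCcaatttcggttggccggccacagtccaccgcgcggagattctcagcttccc
E2F1: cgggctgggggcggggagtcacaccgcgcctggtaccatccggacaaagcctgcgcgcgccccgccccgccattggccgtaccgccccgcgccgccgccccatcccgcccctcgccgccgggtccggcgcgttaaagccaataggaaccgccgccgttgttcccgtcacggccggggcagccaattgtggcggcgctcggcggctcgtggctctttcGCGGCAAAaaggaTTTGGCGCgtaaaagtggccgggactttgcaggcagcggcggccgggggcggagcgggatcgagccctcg
ORC5: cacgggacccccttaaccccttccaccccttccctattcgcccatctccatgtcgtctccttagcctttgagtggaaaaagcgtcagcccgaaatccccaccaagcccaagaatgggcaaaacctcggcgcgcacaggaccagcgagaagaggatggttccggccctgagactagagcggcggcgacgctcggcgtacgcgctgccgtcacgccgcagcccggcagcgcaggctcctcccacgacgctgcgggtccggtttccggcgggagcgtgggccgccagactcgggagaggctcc

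In these windows MCM2 carries a pair of words overlapping on opposite strands just after the start, and the others lie at -187 and -9 from the start in MCM7, -33 and -20 in E2F1 and -63 in UNG. At least 1 E2F-type word stood in 21 of the 54 windows of members, or 38.9%, against 3.31% of all 35116 windows in the table. By gene, 21 of 42 members had a word, or 50%, against 3.99% of all 27305 genes with a window. Members with a word included all 4 MCM2-7 genes that have a window (MCM2, MCM3, MCM6 and MCM7) and all of CDC6, CDT1 and GMNN. Of the 6 ORC genes only ORC3 had one. A word is a match of letters and says nothing of whether a factor binds there.

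Relative to adherent cells, floating cells had lower levels of all 6 MCM2-7 helicase genes, 3 of them by at least 1.2-fold, and of FEN1, UNG, E2F1 and CCNE2. Among the members, PCNA, every clamp loader and RPA gene, and the nucleotide synthesis genes RRM1, RRM2, TYMS and TK1 lay within 1.2-fold. Of the 49 members, 35 had ratios below 0 and 14 above. Counting intervals lay below 0 for 28 members, above 0 for 7 and included 0 for 14, while over all genes tested 25.6% of intervals lay below 0 and 25.5% above. Among the 10139 genes of at least 10 CPM, a level that every member reaches, 29% lay below 0. The members' median log2 ratio was -0.10, and that of all genes tested was -0.005. Differences were small. By a rule of at least 1.2-fold with an interval that excludes 0, 9 members were lower, or 18.4%, beside 12.5% of all genes tested, and 0 were higher, beside 12.1%. On deposited TPM, without an interval, 17 members were lower, or 34.7%, beside 18.9% of all genes tested, and at 1.5-fold 0 were lower, beside 2.90%. How far the share of lower members stands from the background thus depends on the scale and the threshold. No member was 2-fold apart, a difference that 2.03% of all genes tested showed. The 9 members lower by the 1.2-fold rule were MCM5, UNG, MCM2, CCNE2, MCM7, E2F1, ORC1, POLA2 and FEN1. Below, a member called lower or higher without naming this rule has an interval on that side of 0 and may lie within 1.2-fold. CDT1 (log2 ratio -0.26), POLE2 (-0.26) and MCM3 (-0.26) lay just short of 1.2-fold, and FEN1 (-0.28) and POLA2 (-0.28) just past it.

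**Figure D1:**
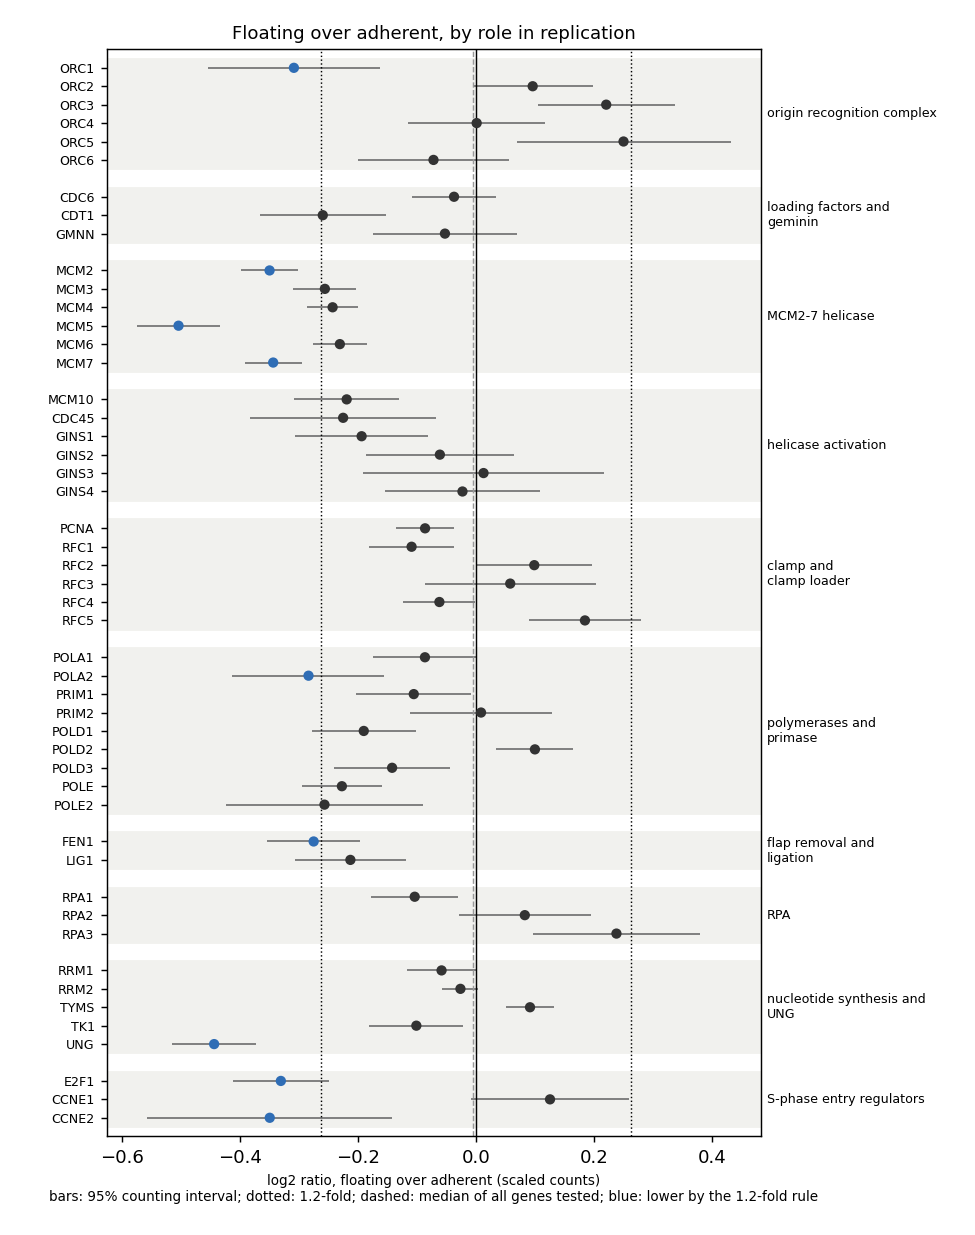
Log2 ratio of floating over adherent for each of the 49 members, grouped by role, with 95% counting intervals as bars; dotted lines mark 1.2-fold, the dashed line the median of all genes tested, and blue points the 9 members lower by the 1.2-fold rule. All 6 MCM2-7 genes lie left of 0 with their intervals, and ORC, RFC and RPA genes lie on both sides.

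The origin recognition complex, which marks where replication can start, had 1 interval below 0, 2 above and 3 that include 0. Over all genes tested 25.6% of intervals lay below 0 and 25.5% above, so both directions are common among genes at large. ORC1, the subunit whose level is known to change with the cell cycle, had 709 reads in floating and 849 in adherent cells, at 17.8 and 22.8 TPM, a 1.24-fold deficit in the floating library (interval 1.12 to 1.37). ORC3 and ORC5, subunits of the ORC core, had intervals above 0. ORC3 had 1350 reads in floating and 1120 in adherent cells, a 1.16-fold excess (interval 1.08 to 1.26). ORC5 had 561 reads in floating and 456 in adherent cells, a 1.19-fold excess (interval 1.05 to 1.35), and it had the highest ratio of all members. The intervals of ORC1 and of ORC3 and ORC5 do not overlap. ORC2 (log2 ratio 0.10), ORC4 (0.0008) and ORC6 (-0.07) had intervals that include 0. Summed over the 6 transcripts, levels were 192.1 TPM in floating and 191.9 TPM in adherent cells. ORC4 was the least abundant subunit, at 14.2 TPM in floating and 14.6 TPM in adherent cells, and ORC6 the most abundant, at 51.5 and 55.8 TPM.

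Among the factors that load the helicase, CDT1 had an interval below 0 and CDC6 did not. CDT1, which brings MCM2-7 to origins, had 1340 reads in floating and 1551 in adherent cells, at 40.46 and 49.96 TPM, a log2 ratio of -0.26 (interval -0.37 to -0.15). CDC6, the ATPase that works with ORC, had 3273 and 3247 reads at 85.7 TPM in floating and 90.7 TPM in adherent cells, and its log2 ratio of -0.04 had an interval from -0.11 to 0.03. Geminin (GMNN), the inhibitor of CDT1, had 1109 and 1112 reads and a log2 ratio of -0.05 (interval -0.17 to 0.07). The level of CDT1 was 0.481 times that of geminin in floating and 0.556 times in adherent cells.

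The 6 MCM2-7 genes, which encode the ring of the replicative helicase, were the one group in which every interval lay below 0, apart from the pair FEN1 and LIG1. Their median log2 ratio was -0.30, and their summed level was 822 TPM in floating and 1055 TPM in adherent cells. MCM5 was lowest, with 2832 reads in floating and 3883 in adherent cells, at 90.2 and 132.0 TPM. That is 1.42-fold lower (interval 1.35 to 1.49), at percentile 4.62 of the log2 ratios of all genes tested. MCM2 had 6262 reads in floating and 7715 in adherent cells, at 142.2 and 186.9 TPM, with a log2 ratio of -0.35 (interval -0.40 to -0.30). MCM7 had 6344 reads in floating and 7783 in adherent cells, at 180.5 and 236.2 TPM, with a log2 ratio of -0.34 (interval -0.39 to -0.30). MCM3, MCM4 and MCM6, also subunits of the ring, were lower by less, with log2 ratios of -0.26, -0.24 and -0.23 and intervals from -0.31 to -0.19 over the 3 of them. The interval of MCM5 overlapped that of no other ring subunit. The ring's subunits are needed in equal number in the protein, and their transcript levels lay within 2.001-fold of each other in floating cells (MCM5 lowest, MCM7 highest) and within 1.79-fold in adherent cells.

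Of the 6 factors that activate the loaded helicase, 3 had intervals below 0 and 3 had intervals that include 0. MCM10 (1914 reads in floating and 2154 in adherent cells) had a log2 ratio of -0.22 (interval -0.31 to -0.13). CDC45 (630 and 712 reads), which joins MCM2-7 and GINS in the moving helicase, had one of -0.23 (-0.38 to -0.07). Of the 4 GINS subunits, GINS1 (1219 reads in floating and 1348 in adherent cells) was lower, with a log2 ratio of -0.19 (-0.31 to -0.08), whereas GINS2 (-0.06), GINS3 (0.01) and GINS4 (-0.02) had intervals that include 0. GINS2 was at 79.5 TPM in floating and 85.4 TPM in adherent cells, and GINS3 at 14.8 and 15.2 TPM, although their proteins form a complex with 1 copy of each. None of these 6 genes was 1.2-fold apart.

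**Figure D2:**
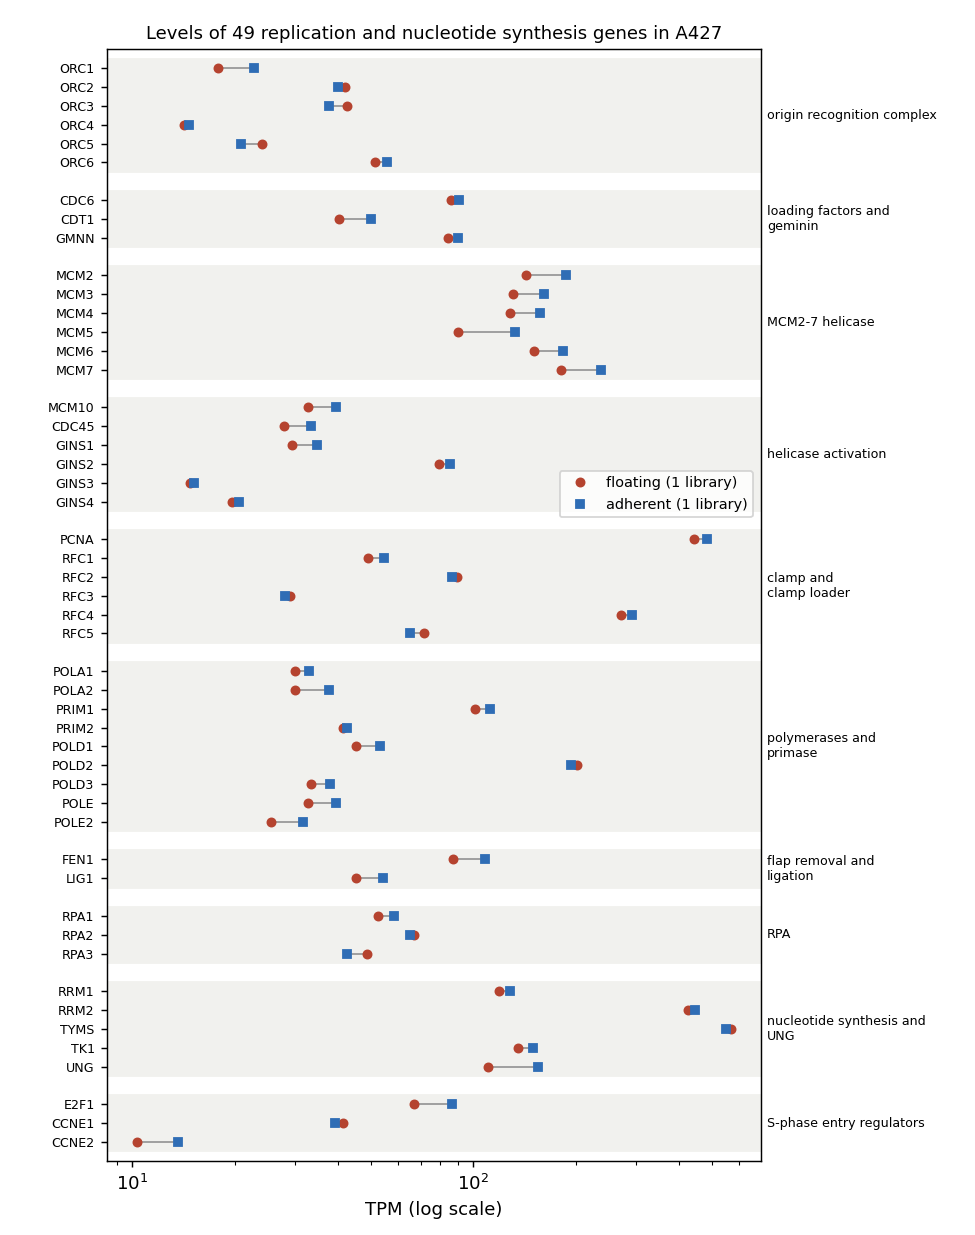
Level of each member in TPM (log axis) in the floating library (red circles) and the adherent library (blue squares), grouped by role. TYMS, PCNA and RRM2 stand at the right in both libraries and CCNE2 at the left. The gap between the libraries is wide for MCM5, UNG, MCM2, CCNE2, MCM7, E2F1 and ORC1 beside that of most members.

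The sliding clamp and its loader showed no common direction. PCNA, the ring that holds polymerases on DNA, was the most abundant of this group, at 443 TPM in floating and 484 TPM in adherent cells, with 6595 and 6769 reads and a log2 ratio of -0.09 (interval -0.14 to -0.04). RFC1, the large subunit of the loader, had a log2 ratio of -0.11 (-0.18 to -0.04) and RFC4 one of -0.06 (-0.12 to -0.001). RFC5, with 1935 reads in floating and 1646 in adherent cells, had one of 0.18 (0.09 to 0.28), and RFC2 one of 0.10 (0.0004 to 0.20). The interval of RFC3 (0.06) included 0. Of the 5 RFC intervals, 2 lay below 0 and 2 above, beside 25.6% and 25.5% of all genes tested. The 5 RFC genes spanned a 9.35-fold range of levels in floating cells and a 10.4-fold range in adherent cells, with RFC4 highest, at 271 and 292 TPM, and RFC3 lowest, at 29.02 and 28.07 TPM.

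Polymerase and primase genes were mostly lower, by small amounts. Polymerase alpha and primase start each new strand, polymerase epsilon copies the leading strand and polymerase delta the lagging strand. POLA2, the accessory subunit of polymerase alpha, had 915 reads in floating and 1077 in adherent cells, at 30.0 and 37.7 TPM, and was 1.22-fold lower (interval 1.11 to 1.33). POLA1, the catalytic subunit, had a log2 ratio of -0.09 (-0.17 to 0.0003). The primase genes PRIM1 and PRIM2 had log2 ratios of -0.11 (-0.20 to -0.01) and 0.01 (-0.11 to 0.13). PRIM1, with 1695 reads in floating and 1763 in adherent cells, shares 33 exon bases on the same strand with NACA in GENCODE v29, a gene of far more reads with a log2 ratio of 0.14. The part of NACA reads in the PRIM1 count was not tested. Both epsilon genes were lower, POLE (3363 reads in floating and 3806 in adherent cells) at -0.23 (-0.29 to -0.16) and POLE2 (554 and 640 reads) at -0.26 (-0.42 to -0.09). Of the delta genes, the catalytic POLD1 (-0.19, interval -0.28 to -0.10) and POLD3 (-0.14, -0.24 to -0.04) were lower, and POLD2 (0.10, 0.03 to 0.16) was higher in floating cells. POLD2 was at 201 TPM in floating and 194 TPM in adherent cells, 4.44 and 3.63 times the level of POLD1.

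FEN1 and LIG1, which trim and seal the fragments of the lagging strand, were both lower. FEN1 had 2431 reads in floating and 2844 in adherent cells, at 86.8 and 108.3 TPM, a 1.21-fold difference (interval 1.15 to 1.28). LIG1 had 1751 reads in floating and 1962 in adherent cells, with a log2 ratio of -0.21 (-0.31 to -0.12). In GENCODE v29 the exons of FEN1 share 49 bases with those of FADS2 on the same strand, and FADS2, a fatty acid desaturase, had a log2 ratio of -0.86. The part of FADS2 reads in the FEN1 count was not tested.

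The RPA genes, whose products coat single-stranded DNA as a trimer, had 1 interval below 0, 1 above and 1 that includes 0. Among all genes tested, 25.6% of intervals lay below 0 and 25.5% above. RPA3, the small subunit, had 904 reads in floating and 741 in adherent cells, with a log2 ratio of 0.24 (interval 0.10 to 0.38). RPA1, the large subunit that holds most of the DNA contacts, had 2926 reads in floating and 3040 in adherent cells, with a log2 ratio of -0.10 (-0.18 to -0.03). The interval of RPA2 (0.08) included 0. At the level of TPM the 3 subunits lay within 1.37-fold of each other in floating and 1.53-fold in adherent cells.

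Genes of nucleotide synthesis were among the most abundant members and differed little. TYMS, which makes thymidylate, stood at 568 TPM in floating and 549 TPM in adherent cells, with 10472 and 9502 reads and a log2 ratio of 0.09 (interval 0.05 to 0.13). RRM2, the regulatory subunit of ribonucleotide reductase, stood at 425 TPM in floating and 446 TPM in adherent cells, with 17494 and 17225 reads and a log2 ratio of -0.03 (-0.06 to 0.004). Its partner RRM1, the catalytic subunit, had a log2 ratio of -0.06 (-0.12 to -0.0006), at 0.280 times the level of RRM2 in floating and 0.287 times in adherent cells. TK1, the thymidine kinase of the salvage route, had one of -0.10 (-0.18 to -0.02). These 4 genes therefore had no member past 1.2-fold, and their summed level was 1247 TPM in floating and 1273 TPM in adherent cells. UNG, which removes uracil from DNA and makes no nucleotide, was apart from them. It had 2759 reads in floating and 3628 in adherent cells, at 110.7 and 155.1 TPM, and was 1.36-fold lower (interval 1.29 to 1.43), at percentile 6.15 of all genes tested.

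Of the regulators of S-phase entry, E2F1 and CCNE2 were lower and CCNE1 was not. E2F1, the transcription factor, had 2233 reads in floating and 2715 in adherent cells, at 66.7 and 86.6 TPM, a 1.26-fold difference (interval 1.19 to 1.33). CCNE2, cyclin E2, was the least abundant member, with 349 reads in floating and 430 in adherent cells, at 10.3 and 13.6 TPM, and a 1.27-fold difference (1.10 to 1.47). CCNE1, cyclin E1, had 967 reads in floating and 857 in adherent cells, and its log2 ratio of 0.13 had an interval from -0.01 to 0.26. The interval of CCNE1 did not overlap that of CCNE2. CCNE1 stood at 4.02 times the level of CCNE2 in floating and 2.89 times in adherent cells. In GENCODE v29 the exons of CCNE2 share 1629 bases with those of INTS8 on the opposite strand, and INTS8, a subunit of the Integrator complex, had a log2 ratio of 0.22. No source used here says whether strand was used in counting, so reads of such pairs cannot be told apart. Likewise TYMS shares 967 exon bases with the antisense gene ENOSF1 (log2 ratio 0.30, with 717 reads in floating and 563 in adherent cells). This limit holds for 11 members, the others being ORC4, MCM2, MCM7, GINS2, RFC4, RFC5, PRIM1, FEN1 and RPA1. MCM7 shares 392 bases with AP4M1 (log2 ratio -0.25) and MCM2 shares 45 with TPRA1 (0.10).

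Members with and without an E2F-type word in a promoter window both spanned ratios above and below 0. The 21 with a word had a median log2 ratio of -0.21, from -0.44 (UNG) to 0.22 (ORC3), and 13 had intervals below 0 and 2 above. The 21 without one had a median of -0.06, from -0.31 (ORC1) to 0.25 (ORC5), and 11 had intervals below 0 and 4 above. Of the 7 members lower by the 1.2-fold rule that have a window, 5 had a word (UNG, MCM2, MCM7, E2F1 and POLA2), and ORC1 and FEN1 had none. These are descriptions of the members, and the relation of the words to the ratios was not tested.

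**Figure D3:**
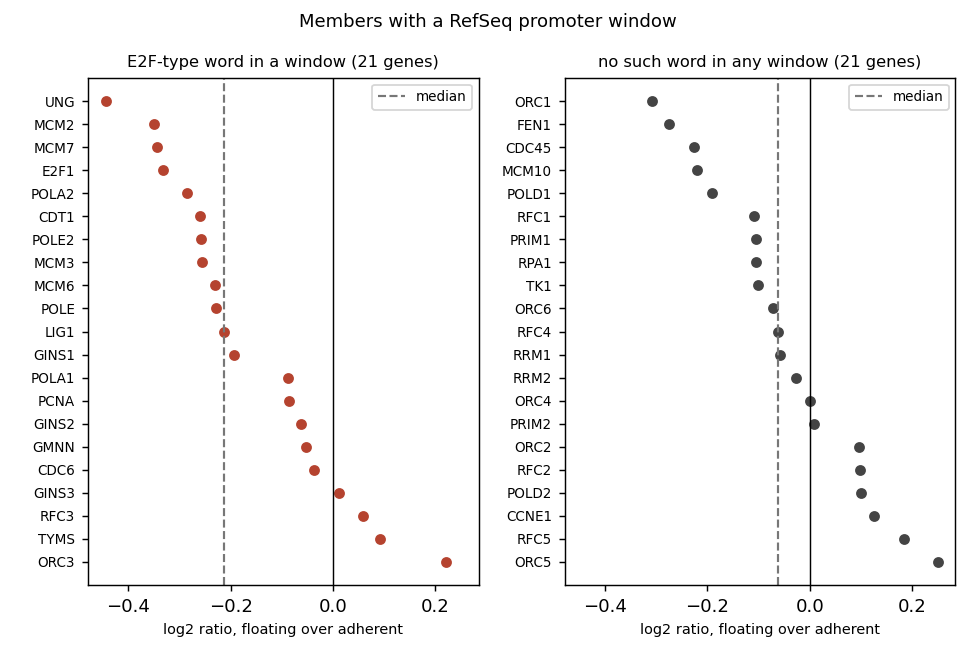
Log2 ratio of floating over adherent for the 42 members with a RefSeq promoter window, split by whether a window holds an E2F-type word (left, 21 genes) or not (right, 21 genes); the dashed line is the median of each set. The sets overlap over most of their range, with medians of -0.21 on the left and -0.06 on the right.

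Other genes of the same processes were described with lists that leave out the members. Of 36 other replication genes, 4 were lower and 3 higher by the 1.2-fold rule, or 11.1% and 8.33%, both under the 12.5% and 12.1% of all genes tested, with a median log2 ratio of -0.04. Of their counting intervals 13 lay below 0, or 36.1%, and 7 above, while over all genes tested 25.6% lay below and 25.5% above. Whether the list is shifted was not tested, and the genes past 1.2-fold are named as single values. The lower ones were ASF1B (log2 ratio -0.38) and CHAF1B (-0.27), which place histones on new DNA, CDK2 (-0.32), the kinase that cyclin E activates, and the helicase MCM9 (-0.29). The higher ones were POLE4 (0.41), a small subunit of polymerase epsilon, DBF4 (0.31), the activator of the kinase CDC7, and SSRP1 (0.27), a histone chaperone. Within polymerase epsilon, POLE4 (interval 0.26 to 0.57) therefore lay on the other side of 0 from POLE and POLE2. Of 22 other S-phase entry genes, a list that also holds CDK2, 10 had intervals below 0, or 45.5%, and 4 above, with a median of -0.07. By the 1.2-fold rule 3 were lower, or 13.6%, near the 12.5% of all genes tested, and 1 higher. The other lower ones were the E2F family members E2F7 (-0.40) and E2F2 (-0.29), and the higher one was cyclin A2 (CCNA2, 0.28), at 108.9 TPM in floating and 92.5 TPM in adherent cells. E2F4, within 1.2-fold, had a log2 ratio of 0.24 (interval 0.14 to 0.34), and E2F6 one of 0.14 (0.03 to 0.25). E2F3 (-0.14), E2F8 (-0.15) and the RB family genes RB1 (-0.19), RBL1 (-0.11) and RBL2 (-0.21) had intervals below 0. The interval of E2F5 (-0.06) included 0.

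Other enzymes of nucleotide synthesis were more often higher than lower in floating cells. Of 33 other nucleotide synthesis genes, 6 were higher and 1 lower by the 1.2-fold rule, or 18.2% and 3.03%, beside 12.1% and 12.5% of all genes tested. Their median log2 ratio was 0.11, with 19 intervals above 0 and 6 below. CTPS1, which makes CTP, had a log2 ratio of 0.47 (interval 0.40 to 0.54), at 94.2 TPM in floating and 70.2 TPM in adherent cells. The pyrimidine enzymes DHODH (0.33) and UMPS (0.28), the purine enzymes IMPDH1 (0.31) and ADSL (0.26) and the nucleoside diphosphate kinase NME1 (0.32) were also higher. The lower one was TK2 (-0.28), the mitochondrial thymidine kinase. E2F-type words were in 10% of the windows of this list.

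Genes of mitosis, the phase after S and G2, had a median on the other side of 0 from that of the members, 14 of which also had ratios above 0. The difference was not tested. Of 32 measured, 24 were higher by the 1.2-fold rule, or 75%, and none lower, beside 12.1% and 12.5% of all genes tested. Their median log2 ratio was 0.34, with values from 0.03 to 0.62. Counting intervals lay above 0 for 29 of the mitosis genes and included 0 for 3. CDC20, which switches on the ubiquitin ligase of anaphase, had the highest ratio of this list. It was at 262 TPM in floating and 176 TPM in adherent cells. No member reached the median of the mitosis genes, the highest member being ORC5 at 0.25. The promoter windows of the lists also differed. The mitosis genes had E2F-type words in 3 of 36 windows, or 8.33%, and the cell cycle homology region word (CHR, TTTGAA or TTCGAA on either strand), known from genes of G2 and mitosis, in 22, or 61.1%. In the members' windows CHR words stood in 3 of 54, or 5.56%, against 16.4% of all windows. The CCAAT box (CCAAT, either strand) stood in 59.3% of the members' windows, 77.8% of the mitosis windows and 34.6% of all windows.

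**Figure D4:**
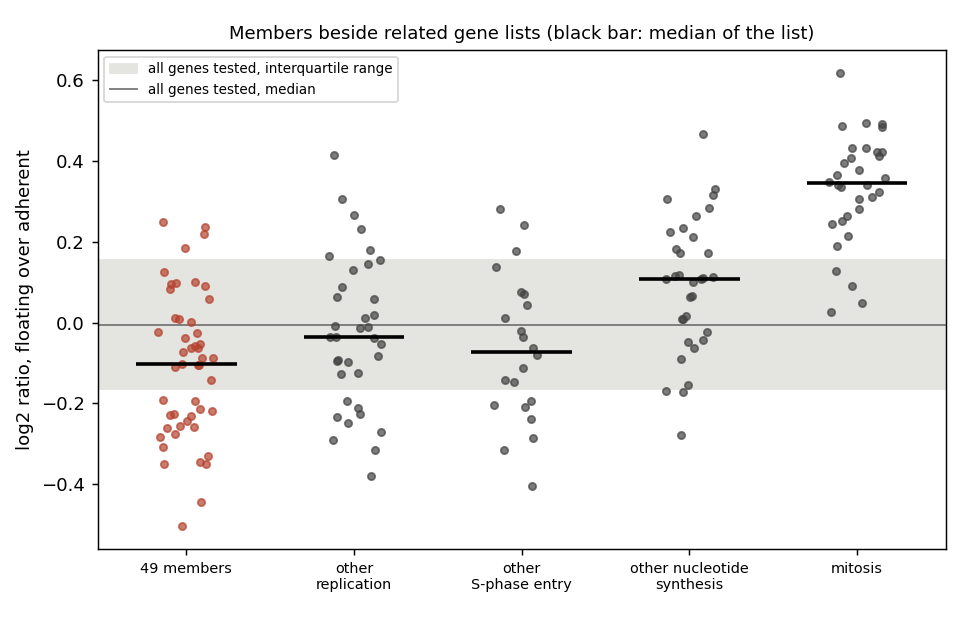
Log2 ratio of floating over adherent for each gene of the 49 members and of the other lists, with each list's median as a black bar, beside the median (line) and interquartile range (grey band, -0.17 to 0.16) of all genes tested. The members' median is -0.10, that of other nucleotide synthesis genes 0.11 and that of mitosis genes 0.34.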

How the data were processed

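Poly(A) RNA libraries of floating and adherent A427 cells were compared, 1 of each. Build hg19 and the tools FastQC (0.11.1), RSEM (1.3.3) and STAR (2.5.3a) are named per the submitters' processing notes. The sources used here do not give the annotation, settings or strand use. Files deposited by the authors hold estimated counts per gene symbol, not normalized, and TPM scaled to 1000000. Estimated counts were rounded (all 49 members were whole numbers) and scaled with edgeR 4.0.16 (R 4.3.3) by TMM, a trimmed mean of log ratios. Log2 ratios used (count + 0.5) per effective library size, for genes of at least 1 CPM in either library. Intervals are exact Clopper-Pearson, conditional on summed reads. PCR reads without molecular identifiers are not independent molecules. With 1 library per group no count test was run. The calculation was run on simulated Poisson counts without spread between cultures or libraries, which checks the arithmetic only. Promoter windows are RefSeq's (GRCh38.p14), used for sequence only, and exon overlaps are from GENCODE v29, on another build than the files; no hg19 coordinates are given. The planned display of proteins was not run. Members and lists were chosen with earlier results of these data known. All members are accounted for, and of each other list the rule named up to 5 genes farthest from 0 past 1.2-fold. CHAF1B, SSRP1, TK2, ADSL, CDC20, E2F4, FADS2, NACA, INTS8, ENOSF1, AP4M1 and TPRA1 were added after values were seen. So were E2F3, E2F5, E2F6, E2F8, RB1, RBL1 and RBL2. Of the mitosis genes only CDC20 is given. Alternatives were scaling by upper quartile, by library totals or by DESeq2 1.42.0, TPM, prior count, filters, whole-number estimates, length and GC trends, fold threshold and the mean. Python 3.11.15, numpy 2.4.6, scipy 1.17.1 and pandas 2.3.3 were used.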

Additional observations from a re-analysis of the deposited data

How the results depend on the processing

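The 6 MCM2-7 genes kept a median log2 ratio between -0.34 and -0.29 over all alternatives, and the members' median lay between -0.14 and -0.09. No member lower by the 1.2-fold rule changed sign. The number of members lower by that rule was 9 as reported, 12 with upper-quartile scaling or with the GC trend removed, 11 with the length trend removed, 17 on deposited TPM (log2 of TPM + 0.1, no interval) and 0 at 1.5-fold; under the remaining alternatives run it was 9. On TPM without an interval 11.5% of all genes tested were higher and 18.9% lower, while without the interval on scaled counts the shares were 14.2% and 15.2%. The median of all genes tested was -0.05 on TPM. Of 3 S-phase entry regulators the mean was -0.19, against a median of -0.33, since CCNE1 was above 0. The near-zero median of the clamp and its loader ran from -0.03 to 0.01. Counting intervals lay below 0 for 28 members and above 0 for 7 as reported. These counts were 25 and 9 with DESeq2 scaling, 26 and 8 with library totals and 30 and 6 with upper-quartile scaling. With the length trend removed they were 28 and 5, and with the GC trend removed 29 and 7. The threshold of at least 10 CPM was added after the data were seen. No paired analysis was possible because each growth form has 1 library, and for the same reason no library could be left out. Counting intervals of members were 0.06 to 0.41 wide (log2). Those widths hold counting error at this depth only, and the spread between cultures or libraries was not measured.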
